A study of Mus musculus with 6 samples.

Results

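Transcript levels of 10 circadian clock genes were described in 6 mouse neurosphere libraries. Neurospheres are clumps of neural stem and progenitor cells that grow in suspension. The 10 genes were taken by symbol: the activators Clock and Arntl, the repressors Per1, Per2, Per3, Cry1 and Cry2, and the output factors Dbp, Tef and Nfil3. All 10 were among the 14327 genes of the FPKM table, and all 10 passed the filter of a mean of at least 1 FPKM over the 6 libraries, which 11596 genes passed. FPKM counts fragments relative to transcript length and library total, and so sets levels of different genes on a scale per length. The cultures were grown from hippocampus of newborn mice (postnatal day 0) in a medium with B27, N2, EGF and bFGF. Wild-type (WT) mice gave 3 libraries, and mice whose label says conditional knockout (cKO) of Slc22a17 gave the other 3. Slc22a17 encodes a receptor for the iron carrier lipocalin 2. The sources used here do not name the Cre driver, the hour of harvest or the sex of the mice. Nor is it said that libraries of 1 group are separate animals, so a p-value here reflects library spread that may be technical.

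The clock is a feedback loop of transcription that takes about a day and runs inside single cells. CLOCK and ARNTL (also called BMAL1) bind together to short DNA elements called E-boxes and switch on the Per, Cry, Dbp, Tef and Nr1d1 genes. PER and CRY proteins later return to the nucleus and block that pair, while the nuclear receptors REV-ERB (Nr1d1, Nr1d2) and ROR act on Arntl through ROR elements. DBP and TEF activate, and NFIL3 represses, genes that carry D-boxes. Arntl and the Per and Dbp genes therefore peak at opposite times of day in synchronised tissue, and cultures that are not synchronised show an average over cells at different times. Astrocytes and neural stem cells are known to carry this clock. In bulk RNA, fewer expressing cells and less RNA per cell cannot be told apart.

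Promoter sequences of 4 members are shown because they hold the E-boxes and D-boxes just named. The RefSeq promoter table of GRCm38.p6, with windows from 250 bases before to 50 after a start site, held 9 of the 10 members in 14 windows. Searched on both strands, the E-box was CACGTG, the related E'-box CACGTT, the D-box TTATGTAA, TTATATAA or TTACGTAA, and the ROR element an AGGTCA or GGGTCA core behind AANT. An E-box lay in 7.15% of all 32851 windows, an E'-box in 4.68%, a D-box in 1.59% and a ROR element in 0.435%. Below, capitals mark the matches, sequences run 5′ to 3′ on the strand of the gene, and bases in annotated exons were left out. Per1 (chr11:69098699-69098947, plus strand, inside the gene) and Tef (chr15:81811164-81811413, plus strand, inside the gene) hold an E-box. Per3 (chr4:151044708-151044915, minus strand) holds 2 copies of the same D-box. Cry1 (chr10:85185065-85185304, minus strand) holds an E'-box (read here as its reverse complement) and an E-box.
Per1: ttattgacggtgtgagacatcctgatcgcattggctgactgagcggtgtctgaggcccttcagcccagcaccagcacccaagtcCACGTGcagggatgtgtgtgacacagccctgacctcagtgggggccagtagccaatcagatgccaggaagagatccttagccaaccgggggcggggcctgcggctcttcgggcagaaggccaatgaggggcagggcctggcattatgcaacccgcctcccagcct
Tef: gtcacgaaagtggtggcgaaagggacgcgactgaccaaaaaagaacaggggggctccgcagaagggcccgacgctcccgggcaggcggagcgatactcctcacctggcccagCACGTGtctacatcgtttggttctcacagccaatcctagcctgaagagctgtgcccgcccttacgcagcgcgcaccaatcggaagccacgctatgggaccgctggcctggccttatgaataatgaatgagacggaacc
Per3: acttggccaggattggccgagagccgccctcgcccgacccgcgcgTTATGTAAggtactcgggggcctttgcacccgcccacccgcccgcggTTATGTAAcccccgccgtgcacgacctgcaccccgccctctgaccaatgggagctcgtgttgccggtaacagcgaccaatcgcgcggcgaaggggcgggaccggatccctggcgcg
Cry1: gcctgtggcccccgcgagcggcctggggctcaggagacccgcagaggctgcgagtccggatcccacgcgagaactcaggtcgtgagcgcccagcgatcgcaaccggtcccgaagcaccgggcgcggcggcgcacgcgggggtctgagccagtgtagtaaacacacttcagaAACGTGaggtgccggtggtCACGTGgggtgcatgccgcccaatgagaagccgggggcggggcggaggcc
The other Tef window also held an E-box, and the Cry2 window an E'-box. A ROR element, AAGTAGGTCA, began 27 bases after a start site of Arntl (chr7:113207538-113207547, plus strand). The windows of Clock, Dbp and Nfil3 held no match to these letters, which says nothing of elements outside the window. A match is a description of sequence and not a measured binding site.

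Transcripts of 2 kinds, Y-linked genes and Slc22a17, were taken as checks of the libraries. Ddx3y and Eif2s3y, transcripts of the Y chromosome, summed to 0.10 and 0.07 FPKM in WT replicates 1 and 2, to 25.9 FPKM in WT replicate 3 and to 43.8 to 51.2 FPKM in cKO. Slc22a17 itself was at 169 to 204 FPKM in WT and 164 to 187 FPKM in cKO (log2 fold change -0.097, adjusted p = 0.707 by limma), so cKO names the label of a library throughout. Neural stem markers (7 of 7 listed, summed 3034 to 3497 FPKM) and astrocyte markers (7 of 7, 3212 to 4202 FPKM) were abundant in all 6 libraries. Oligodendrocyte lineage markers summed to 959 to 1364 FPKM. Neuron markers (5 of 6 listed) summed to 5.11 to 5.78 FPKM in WT and 6.60 to 7.12 FPKM in cKO, and microglia markers (5 of 5) to 1.86 to 4.89 FPKM. In each of these lists only 1 marker averaged at least 1 FPKM and was tested. The 1 tested neuron marker was higher in cKO without overlap, as were 7.07% of all tested genes, and did not pass (limma adjusted p = 0.279). Of endothelial and of fibroblast markers 1 of 4 was listed, at no more than 0.08 and 0.11 FPKM.

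None of the 10 clock genes passed the test of WT against cKO. By limma with Benjamini-Hochberg adjustment 0 of 10 passed an adjusted p of 0.05, beside 0.0259% of all tested genes (0.00862% higher and 0.0172% lower in cKO), and their adjusted p-values ran from 0.501 for Per1 to 0.988 for Per3. No member had an unadjusted p under 0.05, beside 12.3% of all tested genes. The WT and cKO values of every member overlapped, whereas they did not overlap for 17.2% of all tested genes (7.07% higher and 10.2% lower in cKO). By exact permutation tests of the 6 FPKM values the lowest two-sided p among the members was 0.2, and 3 against 3 libraries cannot go under 0.1. Means were higher in cKO for 5 members and lower for 5. The median log2 fold change (of FPKM + 1, cKO minus WT) was 0.0064 over the members and -0.015 over all tested genes.

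The unadjusted 95% intervals show which differences the values of each member allow. They do not give the smallest difference that the adjusted test would call. Leaving out Nfil3, the 95% intervals of the members together covered log2 fold changes from -0.50 (Per1) to 0.28 (Arntl), or 0.705 to 1.21 times the WT level on the scale of FPKM + 1. For 8 of the 10 members the interval lay within 0.5 of zero on the log2 scale. The exceptions were Per1, from -0.50 to 0.057, and Nfil3, from -1.40 to 0.32. These values do not show that the groups had equal levels.

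Levels per length spanned a wide range. Output factors stood at both ends. Dbp, a D-box activator, was the most abundant at 66.2 ± 7.99 FPKM over the 6 libraries (SD, n = 6), followed by its relative Tef at 43.2 ± 2.30 FPKM. Per1 came next at 18.4 ± 3.01 FPKM and Cry2 at 14.6 ± 0.73 FPKM. The ranges of these 4 genes and of Cry1 below them did not overlap. Below that the ranges of neighbours overlapped: Cry1 averaged 10.6, Arntl 9.83, Clock 8.52, Per3 7.24, Per2 6.05 and Nfil3 3.72 FPKM. Cry1 was above Arntl in 5 of 6 libraries, Arntl above Clock in 5, Clock above Per3 and Per3 above Per2 in all 6, and Per2 above Nfil3 in 5. Exons of Dbp share 539 of 2993 annotated bases with Sphk2 on the opposite strand, and without stated strand use such reads cannot be told apart. Sphk2 was at 13.2 to 14.8 FPKM.

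**Figure D1:**
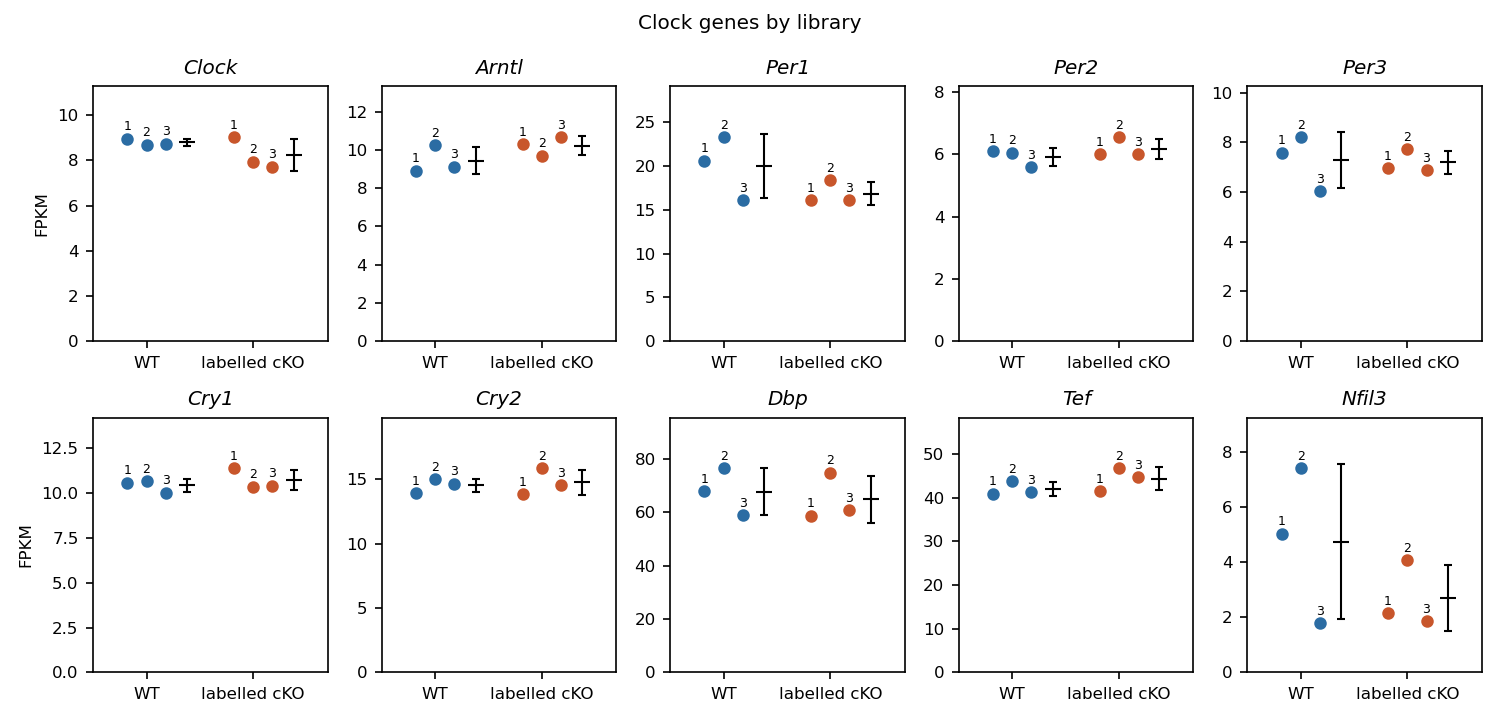
FPKM (y axis, from 0, scaled per panel) of the 10 clock genes in WT (blue) and in cKO libraries (orange). Digits are replicate numbers and the black bar beside each group is its mean ± SD (n = 3), and the groups overlap in every panel, most widely spread in Nfil3 with WT from 1.79 to 7.40 FPKM.

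The activators varied by no more than 1.2-fold over the 6 libraries. Clock (identifier 12753, chromosome 5, 76209868 to 76305603 in GRCm38) measured 8.96, 8.70 and 8.74 FPKM across WT replicates 1 to 3, against 9.04, 7.95 and 7.73 FPKM across cKO replicates 1 to 3. The highest library was thus a cKO library, and so were the lowest 2. Its means were 8.80 ± 0.14 and 8.24 ± 0.70 FPKM (SD, n = 3 each; log2 fold change -0.088 with an SE of 0.074, limma adjusted p = 0.691). The log2 fold change was -0.15 without cKO replicate 1 and -0.048 without cKO replicate 3. Arntl (identifier 11865, chromosome 7, 113178471 to 113314126), the partner of CLOCK, measured 8.92, 10.3 and 9.13 FPKM across WT replicates 1 to 3, against 10.3, 9.70 and 10.7 FPKM across cKO replicates 1 to 3. WT replicate 2 lay among the cKO values. The means were 9.44 ± 0.72 and 10.2 ± 0.49 FPKM (log2 fold change 0.11 with an SE of 0.074, limma adjusted p = 0.611). Leaving out WT replicate 1 gave 0.071, and leaving out WT replicate 2 gave 0.16.

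Among the period genes Per1 had the lowest p of all members and the most spread. Per1 (identifier 18626, chromosome 11, 69095108 to 69109965), which besides the clock answers to growth factors and glucocorticoids, measured 20.6, 23.3 and 16.1 FPKM across WT replicates 1 to 3, against 16.1, 18.4 and 16.1 FPKM across cKO replicates 1 to 3. WT replicates 1 and 2 were highest and cKO replicate 2 followed, while WT replicate 3 was level with cKO replicates 1 and 3. The means were 20.0 ± 3.65 and 16.9 ± 1.33 FPKM, 84.2% of WT (log2 fold change -0.22 with an SE of 0.12, limma adjusted p = 0.501). Against WT replicate 3 alone the log2 fold change was 0.058, and without WT replicate 3 it was -0.36 (adjusted p = 0.180). It was -0.11 without WT replicate 2.

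Per2 and Per3 had log2 fold changes nearer 0 than Per1. Per2 (identifier 18627, chromosome 1, 91415977 to 91459351), which is required for robust rhythms, measured 6.10, 6.06 and 5.59 FPKM across WT replicates 1 to 3, against 6.0, 6.56 and 6.0 FPKM across cKO replicates 1 to 3. The range from lowest to highest was 1.17-fold. Its log2 fold change was 0.055 (SE 0.074, adjusted p = 0.818). This value was 0.018 without cKO replicate 2 and 0.021 when WT replicate 3 was left out, and 0.25 after adjusting for the Y-linked share. Per3 (identifier 18628, chromosome 4, 150997018 to 151044707), with the pair of D-boxes shown above, measured 7.59, 8.22 and 6.03 FPKM across WT replicates 1 to 3, against 6.97, 7.74 and 6.88 FPKM across cKO replicates 1 to 3. WT held both the highest and the lowest library. The log2 fold change was -0.0068 (SE 0.11, adjusted p = 0.988), and its sign turned with quantile normalization (0.031) and with median centring (0.017). Leaving out single libraries moved it between -0.12 (WT replicate 3) and 0.075 (WT replicate 2).

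The cryptochromes, the stronger repressors of the CLOCK and ARNTL pair, varied by 1.13-fold and 1.14-fold over the 6 libraries. Cry1 (identifier 12952, chromosome 10, 85131700 to 85185054) measured 10.6, 10.7 and 10.03 FPKM across WT replicates 1 to 3, against 11.4, 10.4 and 10.4 FPKM across cKO replicates 1 to 3. The values of the groups interleaved. Its log2 fold change was 0.035 (SE 0.066, adjusted p = 0.876), and -0.0048 without cKO replicate 1. Cry2 (identifier 12953, chromosome 2, 92403646 to 92434085) measured 13.9, 15.0 and 14.6 FPKM across WT replicates 1 to 3, against 13.9, 15.8 and 14.5 FPKM across cKO replicates 1 to 3, and cKO held the lowest and the highest library (log2 fold change 0.020 with an SE of 0.068, limma adjusted p = 0.941). Its sign turned without cKO replicate 2 (-0.030) and without WT replicate 1 (-0.0079).

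The output factors differed in how much they varied. Dbp (identifier 13170, chromosome 7, 45705100 to 45710203) measured 67.9, 76.4 and 58.8 FPKM across WT replicates 1 to 3, against 58.7, 74.8 and 60.8 FPKM across cKO replicates 1 to 3. Replicate 2 was the highest of each group. The means were 67.7 ± 8.79 and 64.8 ± 8.72 FPKM (log2 fold change -0.062 with an SE of 0.12, limma adjusted p = 0.873). Without WT replicate 2 that value was 0.028. Removing cKO replicate 1 gave 0.0029 and removing cKO replicate 2 gave -0.17. Tef (identifier 21685, chromosome 15, 81802673 to 81826863) measured 41.0, 43.8 and 41.4 FPKM across WT replicates 1 to 3, against 41.6, 46.7 and 44.8 FPKM across cKO replicates 1 to 3, a range of 1.14-fold, with WT replicate 2 inside the cKO values. Its log2 fold change was 0.074 (SE 0.062, adjusted p = 0.685), which became 0.12 without cKO replicate 1 and 0.037 without cKO replicate 2.

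Nfil3 (identifier 18030, chromosome 13, 52967209 to 52982878), which represses the D-box genes that DBP and TEF activate, varied most. It measured 5.03, 7.40 and 1.79 FPKM across WT replicates 1 to 3, against 2.14, 4.08 and 1.87 FPKM across cKO replicates 1 to 3. WT thus held the lowest library and the highest 2. The highest WT library was 4.13 times the lowest, a ratio reached by 0.216% of all tested genes. The means were 4.74 ± 2.82 and 2.70 ± 1.21 FPKM, 56.9% of WT (log2 fold change -0.54 with an SE of 0.38, limma adjusted p = 0.609). That value moved with single libraries, to -0.20 without WT replicate 2 and to -0.99 without WT replicate 3 (adjusted p = 0.187). Against WT replicate 3 alone it was 0.36, the opposite sign.

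The same 3 libraries were highest for part of the set. For Per1, Per2, Per3, Dbp and Nfil3, 5 of the 10 members, the 3 highest libraries were WT replicates 1 and 2 and cKO replicate 2, as for 8.36% of all tested genes. Arntl, Clock, Cry1, Cry2 and Tef had other libraries among the highest 3. WT replicate 3 was the lowest library for 4 members (Per2, Per3, Cry1 and Nfil3) and for 12.4% of all tested genes. WT replicate 2 was the highest for 4 members (Per1, Per3, Dbp and Nfil3) and for 26.6% of all tested genes. The pattern was noticed in these values and carries no test, and the members are not independent of each other.

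**Figure D2:**
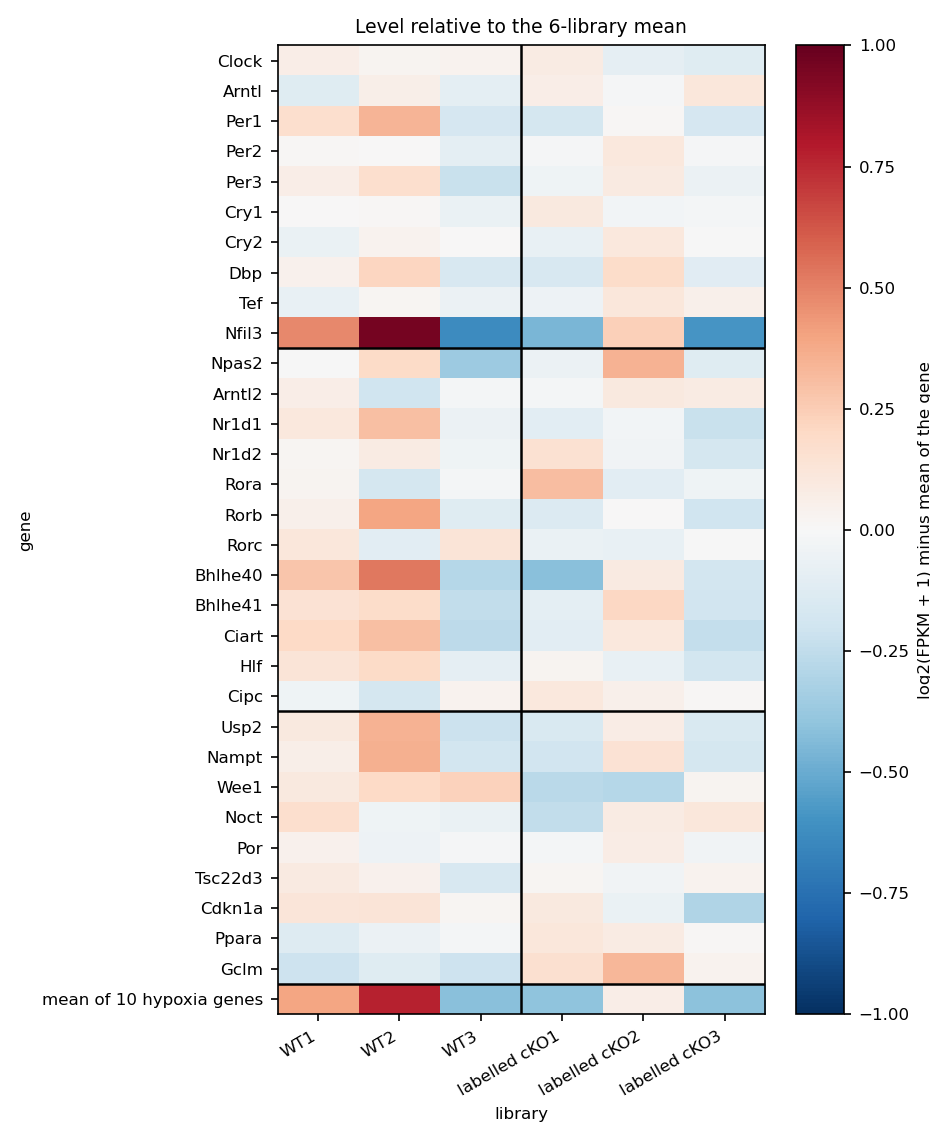
Level of each clock gene, other clock transcription factor and clock output (rows) in each library (columns), as log2(FPKM + 1) minus the gene's 6-library mean (colour, red above and blue below). The bottom row is the mean of 10 hypoxia genes, and Per1, Dbp, Nfil3, Bhlhe40 and Ciart are red in WT replicates 1 and 2 and blue in WT replicate 3 and in cKO replicates 1 and 3.

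Most hypoxia genes were highest in the same 3 libraries. Relative to the WT mean, 10 of them averaged log2 values of 0.15, 0.52 and -0.67 across WT replicates 1 to 3 and -0.65, -0.18 and -0.66 in cKO replicates 1 to 3. For 9 of the 10 the highest 3 libraries were WT replicates 1 and 2 and cKO replicate 2. Vegfa, the blood vessel growth factor induced when oxygen is low, measured 224, 272 and 87.6 FPKM across WT replicates 1 to 3, against 99.8, 140 and 87.1 FPKM across cKO replicates 1 to 3 (adjusted p = 0.489 by limma). None of the 10 passed (by limma 2 had an unadjusted p under 0.05, beside 12.3% of all tested genes). Their part in the clock values was not tested.

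**Figure D3:**
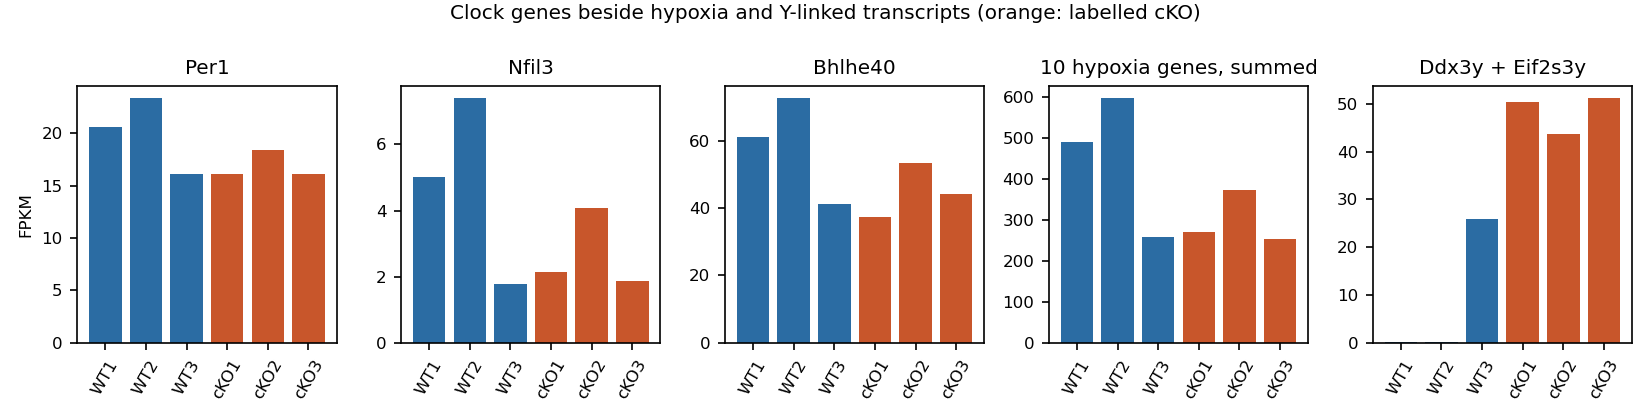
FPKM (y axis, bars from 0) of Per1, Nfil3 and Bhlhe40, the sum of 10 hypoxia genes, and the sum of Ddx3y and Eif2s3y, in WT (blue) and in cKO libraries (orange). The first 4 panels share the order of WT replicate 2, WT replicate 1 and cKO replicate 2 from the top, while the Y-linked sum is 0.10 FPKM or less in WT replicates 1 and 2 alone.

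Lists of genes that answer other inducers of Per1 did not share all of its highest 3 libraries. Immediate early genes, which answer growth factors within minutes, averaged 0.24, 0.036 and -0.28 in WT relative to the WT mean and -0.56, -0.50 and -0.57 in cKO. Of 12 listed 10 were tested and 0 passed by limma. An unadjusted p under 0.05 was reached by 6 of them, beside 12.3% of all tested genes. All 10 had lower means in cKO, and 5 were lower without overlap (10.2% of all tested genes). Glucocorticoid targets averaged close to 0, 0.17 and -0.17 in WT and 0.039, 0.21 and 0.019 in cKO (10 tested, 0 passed, 1 with an unadjusted p under 0.05). The highest 3 libraries were the 3 WT libraries for the first list. For the second they were cKO replicate 2, WT replicate 2 and cKO replicate 1. Their part in the Per1 values was not tested.

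The distance between Arntl and its opposite-phase partners was also taken in each library, as a difference of log2(FPKM + 1). Arntl minus Dbp was -2.80, -2.78 and -2.56 in WT replicates 1 to 3 and -2.40, -2.82 and -2.40 in cKO replicates 1 to 3. The groups overlapped, with cKO replicate 2 at the bottom. Arntl minus Per3 was 0.21, 0.29 and 0.53 in WT and 0.50, 0.29 and 0.57 in cKO, so that WT replicate 3 lay among the cKO values. Arntl minus Per2 differed by 0.05 between the group means and Arntl minus Tef by 0.03, each with overlapping groups. Arntl minus Nr1d1 was -1.90, -1.92 and -1.71 in WT and -1.51, -1.67 and -1.34 in cKO, and here the groups did not overlap (difference of means 0.34). Neither Arntl nor Nr1d1 alone had non-overlapping groups. For single genes the groups did not overlap in 17.2% of all tested genes, and no such share was taken for differences between genes. These differences combine genes and carry no test.

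Among 12 other transcription factors of the clock none passed by limma, 4 had higher and 8 lower means, and the median log2 fold change was -0.071. No gene of this list had non-overlapping groups, beside 17.2% of all tested genes. Nr1d1 is the gene of REV-ERB alpha, a repressor of Arntl. It was the only one of the 12 with an unadjusted limma p under 0.05, beside 12.3% of all tested genes (adjusted p = 0.382). It measured 36.1, 41.6 and 32.1 FPKM across WT replicates 1 to 3, against 31.1, 33.0 and 28.7 FPKM across cKO replicates 1 to 3, 84.5% of WT (log2 fold change -0.23, SE 0.096). cKO replicate 2 lay just above WT replicate 3, and against WT replicate 3 alone the log2 fold change was -0.056. Leaving out WT replicate 2 gave -0.14. Exons of Nr1d1 share 8.55% of their bases with Thra on the opposite strand, and Thra was at 84.4 to 111 FPKM.

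The remaining receptors and the DEC repressors showed no call either. Nr1d2, the gene of REV-ERB beta, averaged 16.7 and 16.3 FPKM, and Rora, an activator of Arntl, 6.62 and 7.28 FPKM (adjusted p = 0.895 and 0.759). Bhlhe40 (DEC1), which competes with CLOCK and ARNTL for E-boxes and is also induced by low oxygen, measured 61.1, 72.7 and 41.1 FPKM across WT replicates 1 to 3, against 37.3, 53.5 and 44.2 FPKM across cKO replicates 1 to 3 (log2 fold change -0.34 with an SE of 0.20, limma adjusted p = 0.526). WT replicate 3 lay among the cKO values, and without it the log2 fold change was -0.57 (adjusted p = 0.187). Without WT replicate 2 it was -0.17. Bhlhe41 (DEC2) averaged 13.1 and 12.6 FPKM (adjusted p = 0.918).

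Hlf, the third D-box activator, averaged 11.8 FPKM in WT and 10.5 FPKM in cKO (log2 fold change -0.15, limma adjusted p = 0.549). For Hlf the log2 fold change was -0.24 without WT replicate 3 (adjusted p = 0.286) and -0.094 without WT replicate 2. Npas2, which can stand in for CLOCK, averaged 3.40 and 3.75 FPKM (adjusted p = 0.839). Of the 12 factors 6 had WT replicates 1 and 2 and cKO replicate 2 highest, beside 8.36% of all tested genes. These were Npas2, Nr1d1, Rorb, Bhlhe40, Bhlhe41 and Ciart. Ciart, a repressor of the CLOCK and ARNTL pair, measured 8.38, 9.08 and 5.81 FPKM across WT replicates 1 to 3, against 6.59, 7.82 and 5.95 FPKM across cKO replicates 1 to 3 (adjusted p = 0.731). Its window held 3 E-boxes. Rorb and Ciart were named after their values were seen.

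Genes that act on clock proteins or serve as their cofactors gave no call. Of these 18 kinases, ubiquitin ligase subunits and cofactors, with the deubiquitinase Usp2, 9 had higher and 9 lower means. The median of their log2 fold changes was -0.0060. By limma none passed and 1 had an unadjusted p under 0.05, beside 12.3% of all tested genes. Without overlap 1 was higher and 1 was lower, beside 7.07% and 10.2% of all tested genes. Casein kinase 1 delta and epsilon (Csnk1d, Csnk1e), which mark PER for breakdown, had log2 fold changes of -0.019 and 0.049. Both were named after their values were seen. Timeless, which acts mainly at DNA replication forks, measured 5.62, 5.58 and 5.66 FPKM across WT replicates 1 to 3, against 4.88, 4.02 and 4.93 FPKM across cKO replicates 1 to 3, without overlap (log2 fold change -0.24 with an SE of 0.087, limma adjusted p = 0.317). Sirt1, a deacetylase that acts on ARNTL and PER2, averaged 3.75 and 4.12 FPKM without overlap (adjusted p = 0.636).

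Of 9 tested outputs of the clock 4 had higher and 5 lower means. By limma none passed and 2 had an unadjusted p under 0.05, beside 12.3% of all tested genes. Without overlap 2 were higher and 1 was lower, beside 7.07% and 10.2% of all tested genes. Wee1, a kinase that holds cells before mitosis and is an E-box target, measured 11.2, 12.1 and 12.4 FPKM across WT replicates 1 to 3, against 8.42, 8.32 and 10.6 FPKM across cKO replicates 1 to 3, without overlap (log2 fold change -0.35 with an SE of 0.096, limma adjusted p = 0.237). Of 10 mitosis genes all had lower means, none passed by limma, 10 had an unadjusted p under 0.05 (12.3% of all tested genes) and 7 were lower without overlap (10.2% of all tested genes). They averaged -0.48, -0.63 and -0.20 in cKO replicates 1 to 3 relative to the WT mean, and their part in the Wee1 and Timeless values was not tested. Gclm, an enzyme subunit of glutathione synthesis, averaged 42.3 FPKM in WT and 54.5 FPKM in cKO without overlap (log2 fold change 0.35, limma adjusted p = 0.194), and passed with library weights (adjusted p = 0.0479). Ppara, a nuclear receptor of lipid metabolism, averaged 2.36 and 2.70 FPKM without overlap (adjusted p = 0.565). Nampt, the rate-limiting enzyme of NAD salvage, measured 9.36, 11.8 and 7.78 FPKM across WT replicates 1 to 3, against 7.71, 10.01 and 7.81 FPKM across cKO replicates 1 to 3, with overlap. Usp2, a deubiquitinase of clock proteins, was at 22.5, 27.0 and 17.9 FPKM and at 18.8, 22.2 and 18.8 FPKM. Usp2 was counted among these outputs and among the 18 genes above. Nampt and Usp2, 2 of the 9 outputs, had the same 3 libraries highest as Per1 and were named after their values were seen. Of the 18 genes above 3 had these libraries highest, Usp2 among them, beside 8.36% of all tested genes.

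The genes most like Per1, the member of lowest p, were found by the Pearson correlation of log2(FPKM + 1) over the 6 libraries among 11595 genes. Highest were Soat1 (r = 0.997), Dcdc2b (0.996), Espn (0.995), Pyroxd2 (0.994) and Hfe (0.993). Soat1 makes cholesterol esters, Espn bundles actin, and Hfe regulates iron uptake at the cell surface. Hfe measured 11.2, 13.1 and 9.0 FPKM across WT replicates 1 to 3, against 8.68, 9.82 and 8.89 FPKM across cKO replicates 1 to 3 (adjusted p = 0.460 by limma). As for Per1, WT replicates 1 and 2 and cKO replicate 2 were highest. Hfe was picked by its likeness to Per1, so this shared order is no separate observation. With 6 libraries, 141 genes reached an r of at least 0.95, and no clock gene was among the highest 5.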

How the data were processed

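RNA sequencing of 6 libraries gave 1 table of FPKM values, made by the authors through a BGISEQ service per the labels' protocols and deposited as 1 column per library per the file headers. The submitters' processing notes list Bowtie2 and GRCm38 (mm10). Not given in the sources used here are the aligner's version, counter, strand use, annotation and filters. No value was 0 and the lowest was 0.01 FPKM. Read totals were not recovered, so depth is unknown and precision comes from the spread between libraries.

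The scale was log2(FPKM + 1), which understates changes of low genes. Tested were 11596 genes averaging 1 FPKM or more (2731 left out). The two-sided test of WT against cKO used lmFit and eBayes with trend (limma 3.58.1, R 4.3.3), no replicate block, and p-values adjusted by Benjamini-Hochberg across the tested genes (threshold 0.05). The fit was tested on simulated data with genes drawn independently of each other. That does not show how it behaves where many genes share a library pattern. Identifiers, 14317 of them, matched RefSeq (GRCm38.p6), and overlaps and exons came from GENCODE M21. Named were the members, 7 fixed clock factors, non-overlapping genes of the other clock lists, and the 5 genes most like the member of lowest p. Exceptions are stated. Members, lists and the 18 alternatives were chosen with earlier results of these data known. Figures used matplotlib 3.10.9 in Python 3.11.15.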

Additional observations from a re-analysis of the deposited data

How the results depend on the processing

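No clock member passed under any alternative. The setting of WT replicate 3 alone adds nothing to that: its WT arm is 1 library, assumed to vary like cKO, and the members' adjusted p was at least 0.999. Nfil3 had no value where a mean of 5 FPKM was required. The lowest adjusted p of any member was 0.163 (Per1, with library weights), and 3 members had an unadjusted p under 0.05 there, 2 without WT replicate 3, 2 with the replicate block and 4 with the Y-linked covariate. Depth could not be weighed, since FPKM carries no read totals.

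Of all genes 3 passed. That number was 0 with no filter, with quantile normalization, without the trend, after adjusting for the Y-linked share and against WT replicate 3 alone, 129 with library weights (1 of them a clock output, Gclm), and 0 to 10 without single libraries. With the replicate block it was 22. The numbers do not settle whether libraries were paired. Deviations of same-numbered libraries correlated at -0.043, 0.30 and 0.26. WT replicates 2 and 3 correlated best with the cKO library of the same number, but WT replicate 1 correlated best with cKO replicate 2 (0.12). Under the block Per1 (adjusted p = 0.259) and Nfil3 (adjusted p = 0.211) did not pass, and no other call on a clock gene changed.

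Signs of small log2 fold changes turned. For Per3 it was 0.031 with quantile normalization and 0.017 with median centring. Without single libraries the ranges were -0.12 to 0.075 for Per3, -0.0048 to 0.057 for Cry1, -0.030 to 0.060 for Cry2, -0.17 to 0.028 for Dbp, -0.13 to 0.038 for Nr1d2, -0.017 to 0.19 for Rora, -0.19 to 0.029 for Bhlhe41 and -0.039 to 0.24 for Npas2.

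Adjusting for the Y-linked share (adjusted p 0.369 for Vegfa, at least 0.921 for the others) the members' median was 0.21, and values were 0.45 for Per1, 0.54 for Per3, 0.47 for Dbp, 1.7 for Nfil3, 0.20 for Nr1d1, 0.097 for Nr1d2, -0.048 for Rora, 0.78 for Bhlhe40, 0.67 for Bhlhe41, 0.21 for Hlf, 0.70 for Ciart, 0.35 for Rorb, 0.57 for Usp2, 0.54 for Nampt, 1.66 for Vegfa, 0.55 for Soat1, 0.56 for Dcdc2b, 1.29 for Espn, 0.47 for Pyroxd2 and 0.38 for Hfe. Against WT replicate 3 alone the members' median was 0.11, and values were 0.058 for Per1, 0.22 for Per3, 0.13 for Dbp, 0.36 for Nfil3, 0.022 for Nr1d2, 0.11 for Bhlhe40, 0.22 for Bhlhe41, 0.015 for Hlf, 0.19 for Ciart, 0.015 for Rorb, 0.14 for Usp2, 0.11 for Nampt, 0.28 for Vegfa, 0.093 for Soat1, 0.050 for Dcdc2b, 0.18 for Espn, 0.088 for Pyroxd2 and 0.017 for Hfe. Medians apart, these signs are opposite to those with all libraries and no covariate. Both settings lean on the same library, WT replicate 3. The slope on the Y-linked share comes mostly from WT replicate 3 (25.9 FPKM) against WT replicates 1 and 2 (0.10 and 0.07 FPKM). It is carried on to the 43.8 to 51.2 FPKM of cKO, beyond any WT library. The cause was not tested, and group and Y-linked transcripts cannot be told apart in this design.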
